A study of Caenorhabditis elegans with 9 samples.

Results

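The nuclear hormone receptor genes of *Caenorhabditis elegans* that carry an *nhr* symbol were followed in worms grown at 4, 20 or 500 uM hemin. Members were taken by name: every probe set whose platform annotation gave a single symbol of the form *nhr-* and a number, with *nhr-57* left out. This gave 292 probe sets for 253 genes, of 17118 genes with a single symbol. For each gene the probe set with the highest mean over the 9 arrays stood for it, and a gene counted as measured where that mean was above 4.5 on the log2 scale. By this rule 125 of the 253 genes were measured, and 128 lay below the level.

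The worms were grown in mCeHR-2, a liquid medium without bacteria in which hemin, the oxidised form of heme, is the heme source. Heme is the iron-containing cofactor of cytochromes and catalases, and *C. elegans* cannot make it. Synchronised F2 larvae were inoculated afresh at 4, 20 or 500 uM hemin and collected at late L4, the last larval stage, and total RNA of whole worms was labelled with biotin and hybridised to Affymetrix whole genome arrays of *C. elegans*. Each of the concentrations had 3 replicates, A, B and C. The labels name no strain or genotype, and 20 uM served as the concentration against which 4 and 500 uM were set.

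Nuclear hormone receptors are transcription factors that bind DNA through a zinc finger domain and, in many cases, a small lipophilic molecule through a second domain. *C. elegans* has far more of them than insects or vertebrates, most related to the vertebrate receptor HNF4, and the few whose roles are known act in fat metabolism, diet sensing, detoxification, moulting and development. In insects and mammals, receptors of the E75 and Rev-erb group bind heme itself, and *nhr-85* is their relative in the worm.

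Much of the family gave dim signals. The measured share was 49.4% of the *nhr* genes, against 62.8% of all genes with a single symbol. The share was lowest for chromosome I, where 6 of 18 *nhr* genes were measured (33.3%), against 73.3% of all genes there. Chromosome V carries 163 of the 253 genes, of which 69 were measured (42.3%), against 46.9% of all genes on that chromosome. On chromosome IV 20 of 28 were measured (71.4%), and on chromosome X 16 of 23 (69.6%), against 66.4% and 66.3% of all genes. Of 242 genes annotated as protein-coding 124 were measured, and of 11 annotated as pseudogenes 1 was, *nhr-144*. Just below the level lay *nhr-195* at 4.47, *nhr-123* at 4.45 and *nhr-141* at 4.42, and just above it *nhr-183* and *nhr-277* at 4.51 and *nhr-41* at 4.54.

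The arrays differed in how closely they resembled their own group. Replicate A at 4 uM stood apart: over all tested probe sets its difference from the mean of the other 2 arrays of its group had an SD of 0.431 (log2), against 0.15 to 0.314 for the other 8 arrays. Over the 125 measured receptors the same SD was 0.322 in that array, against 0.145 to 0.226 in the others, with 9 receptors more than 0.5 below and 5 more than 0.5 above the other 2 arrays. The median SD of a receptor within a group was 0.151 at 4 uM, 0.107 at 20 uM and 0.138 at 500 uM. The differences, their tests and the counts of receptors were also computed without that array, but not those of second probe sets, chromosomes or neighbouring genes. Among marker genes, a yolk list (*vit-2*, *vit-5*, *vit-6*) had a median difference of 1.94 for 4 minus 20 uM, with 1 of 3 genes past the test. An oocyte and embryo list had 0.53, with 3 of 6 past it, a sperm list 0.75 (0.20 without replicate A), with 0 of 5, and the adult collagen *col-19* rose by 2.28. For 500 minus 4 uM 3 of 3 yolk, 3 of 6 oocyte and embryo and 2 of 5 sperm genes passed as lower. The remaining oocyte and embryo and sperm genes were lower too, without passing. The list medians were -2.58, -0.67 and -1.39 (-2.69, -0.51 and -0.84 without replicate A), and *col-19* fell by 2.5. For 500 minus 20 uM the medians were -0.64, -0.12 and -0.71 for yolk, oocyte and embryo, and sperm, and *col-19* had -0.22, with 0 past the test. The median level of the yolk list lay between 6.92 and 8.39 at 4 uM, between 5.65 and 6.79 at 20 uM and between 4.85 and 6.32 at 500 uM. That of the oocyte and embryo list lay between 8.05 and 8.14 at 4 uM, between 7.21 and 7.36 at 20 uM and between 7.07 and 7.24 at 500 uM. The median level of the sperm list lay between 6.73 and 8.63 at 4 uM, between 7.34 and 7.68 at 20 uM and between 6.34 and 7.22 at 500 uM. Their part in the receptor values, among them those of *nhr-202* at 4 uM, was not tested.

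At 4 uM hemin, against 20 uM, 1 of the 125 measured receptors rose and 0 fell at an adjusted p under 0.05 (limma, adjusted over the 16911 tested probe sets). Among all tested probe sets 0.68% rose and 0.231% fell. At 500 uM against 20 uM 0 receptors passed the test in either direction, where 0.154% of all tested probe sets rose and 0.0887% fell. For 500 against 4 uM 0 receptors passed as well, against 0.769% of all probe sets rising and 1.3% falling. A joint test for any difference among the concentrations called 1 receptor, the same *nhr-202*, against 1.62% of all tested probe sets. The count for 4 minus 20 uM was 0 when the values were quantile normalised or the arrays centred. With arrays weighted by their quality it was 11. The share of all tested probe sets called with those weights was not computed. The 500 minus 20 uM and the 4 minus 20 uM differences share the 20 uM arrays.

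The receptor that rose at low hemin was *nhr-202*, on chromosome V. It read 5.36, 5.84 and 5.97 in the 4 uM arrays, 4.63, 4.77 and 4.91 in the 20 uM arrays and 4.98, 4.84 and 5.22 in the 500 uM arrays (log2, replicates A, B and C). Every 4 uM value was above every value at 20 and 500 uM, and the 20 and 500 uM values overlapped. The difference for 4 minus 20 uM was 0.95 with an SE of 0.17, a 1.93-fold higher level at 4 uM (limma, adjusted p = 0.0303), and for 500 minus 4 uM it was -0.71 (adjusted p = 0.0686). Without replicate A at 4 uM the first difference was 1.13 (adjusted p = 0.00126) and the second -0.89 (adjusted p = 0.00466), so that *nhr-202* then passed in both. The call for 4 minus 20 uM was lost when any one of 7 arrays was left out, with adjusted p-values of 0.0544 to 0.168, and kept without 500 uM replicate C (0.0459). The size of the difference stayed between 0.83 and 1.13 in those refits. In RNA of whole worms, more cells that express a gene and more RNA per cell cannot be told apart.

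Several other receptors had 4 and 20 uM groups that did not overlap. Higher at 4 uM without overlap were 14 receptors of 125 (11.2%), against 7.13% of all tested probe sets, and lower were 8 (6.4%), against 6.23%. At an unadjusted p under 0.05, 8 were higher and 5 lower, against 4.98% and 3.72% of all probe sets. Without replicate A at 4 uM these last counts were 9 higher and 8 lower, against 5.56% and 5.94%. Without overlap 22 were then higher and 17 lower, against 12.3% and 15.4%, since groups of fewer arrays overlap less often. With all arrays, 121 of the 125 receptors differed by less than 0.5 in either direction.

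*nhr-115*, on chromosome V, read 4.64, 5.25 and 5.67 at 4 uM, 4.54, 4.54 and 4.42 at 20 uM and 5.15, 4.73 and 4.64 at 500 uM. Its 4 uM values were spread over a full log2 unit, with replicate A lowest and close to the 20 uM arrays. The difference for 4 minus 20 uM was 0.69 with an SE of 0.23 (adjusted p = 0.346). Without that array it was 0.97 and passed the test (adjusted p = 0.0163). *nhr-6*, the worm's NR4A receptor, which is needed to form the spermatheca, read 6.10, 6.6 and 6.24 at 4 uM, 5.39, 5.51 and 6.0 at 20 uM and 6.17, 5.86 and 6.09 at 500 uM. The 4 uM arrays were all above the 20 uM arrays, the nearest being only 0.1 apart, and the difference of 0.68 did not pass (SE 0.18, adjusted p = 0.185). A second probe set of *nhr-6* gave 0.51 (adjusted p = 0.105), also without overlap. *nhr-210* read 6.10, 6.0 and 6.11 at 4 uM, 5.57, 5.59 and 5.66 at 20 uM and 5.96, 5.76 and 5.68 at 500 uM, the tightest groups among these genes. Its difference for 4 minus 20 uM was 0.46 with an SE of 0.10 (adjusted p = 0.0725).

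On the lower side, *nhr-155* read 6.53, 6.95 and 6.69 at 4 uM, 7.6, 7.45 and 7.29 at 20 uM and 6.74, 7.19 and 6.89 at 500 uM. Both the low and the high concentration lay below the 20 uM arrays without overlap. The difference was -0.72 for 4 minus 20 uM (SE 0.15, adjusted p = 0.0667) and -0.51 for 500 minus 20 uM (adjusted p = 0.388). *nhr-91*, a relative of the vertebrate germ cell nuclear factor, read 6.59, 6.31 and 6.56 at 4 uM, 6.87, 7.0 and 6.90 at 20 uM and 6.77, 6.95 and 6.89 at 500 uM. Its 4 uM values lay below all 6 others, by 0.44 against 20 uM (SE 0.10, adjusted p = 0.134), while the 20 and 500 uM values overlapped. The remaining receptors named for 4 minus 20 uM had differences between -0.32 (*nhr-98*) and 0.29 (*nhr-55* and *nhr-226*), with adjusted p-values of 0.198 or more.

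**Figure D1:**
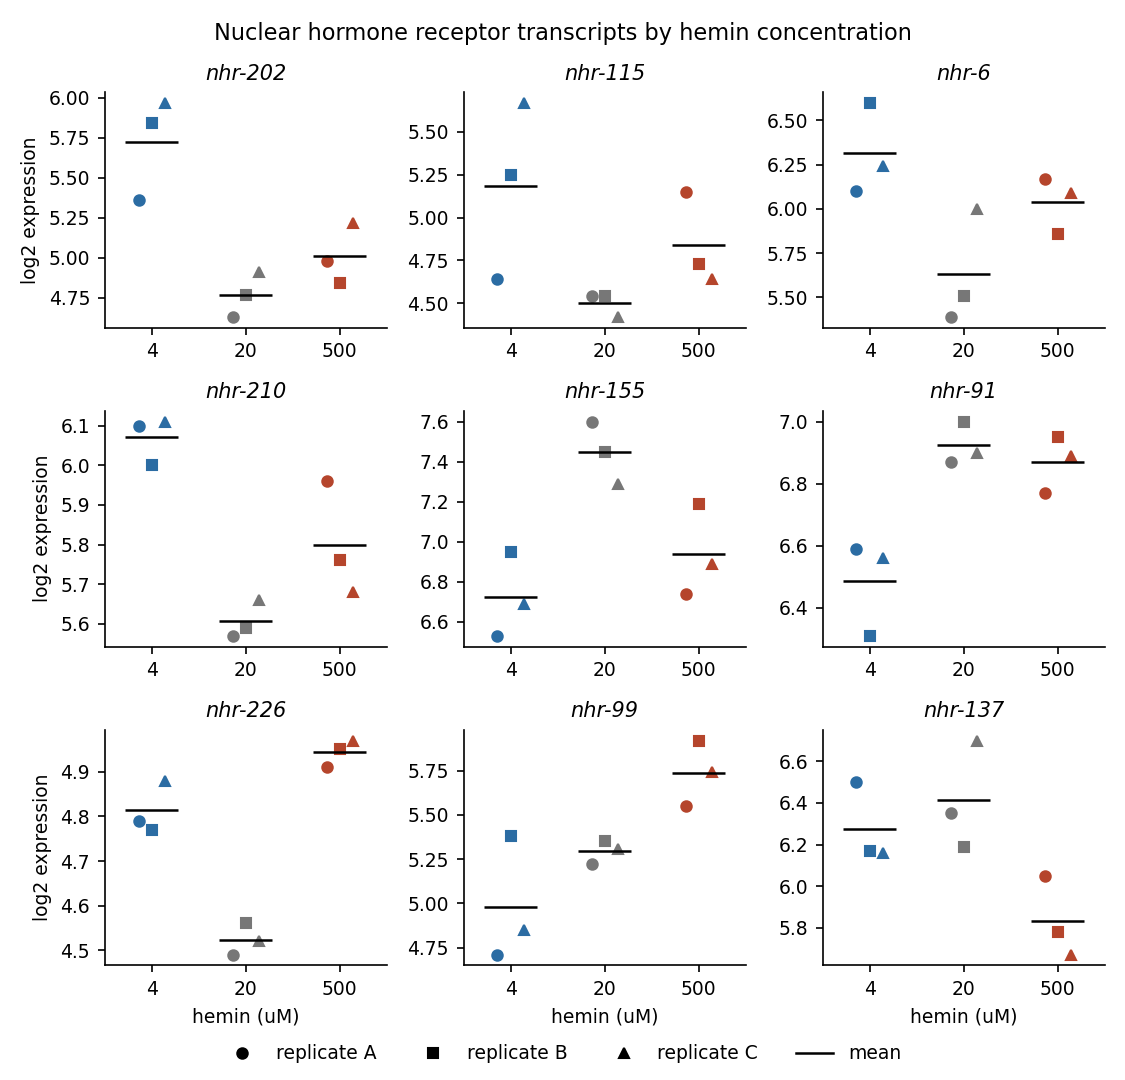
Log2 expression (vertical axis, own scale in each panel) of 9 receptors in each array at 4, 20 and 500 uM hemin (horizontal axis), with replicates A, B and C as circle, square and triangle and the group mean as a line. The 4 uM arrays of *nhr-202* lie between 5.36 and 5.97, above all its 20 and 500 uM arrays, while for *nhr-115* replicate A at 4 uM (4.64) lies near the 20 uM arrays.

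At 500 uM hemin, against 20 uM, the receptors were slightly higher as a group, though none passed the test on its own. The median difference over the 125 was 0.116, and 93 of 125 (74.4%) were above 0. Over all tested probe sets the median was 0.011 and 53.7% were above 0. The middle of the receptors ran from -0.002 to 0.20 (25th and 75th percentile), against a median SE of a single receptor of 0.123. Higher at 500 uM without overlap were 29 of 125, against 9.04% of all tested probe sets, and lower were 2, against 7.78%. At an unadjusted p under 0.05, 13 were higher and 2 lower, against 4.01% and 2.64%. In the fit without replicate A at 4 uM these were 21 and 2, against 6.81% and 6.5% of all tested probe sets.

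Marker lists of some tissues differed by a like amount for 500 minus 20 uM, with 0 genes past the test in any of them. The intestine list had a median of 0.11, with 5 of 5 genes above 0, and a median level of 8.26 to 8.29 in the 500 uM arrays, against 8.14 to 8.26 in the 20 uM arrays. The neuron list had 0.13, with 5 of 6 above 0, and 7.43 to 7.62 in the 500 uM arrays, against 7.23 to 7.46 in the 20 uM arrays. Body wall muscle had -0.08, with 0 of 4 above 0, and hypodermis and germline had -0.05 each, with 2 of 5 and 2 of 6 above 0. For 4 minus 20 uM the intestine list had 0.12, with 4 of 5 above 0, and the neuron list 0.01, with 4 of 6. For 500 minus 4 uM the intestine list had -0.01, with 2 of 5 above 0, and the neuron list 0.12, with 5 of 6. The receptors' medians in those comparisons were 0.01 and 0.085. The part of these tissues in the receptors' median was not tested.

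The same pattern was seen array by array. The median deviation of the 125 receptors from their own means over the 9 arrays was 0.042, 0.059 and 0.084 in the 500 uM arrays A, B and C, against -0.060, -0.049 and -0.005 in the 20 uM arrays. All 500 uM arrays were above all 20 uM arrays on this measure. The 4 uM arrays had -0.006, -0.046 and 0.014 and overlapped the 20 uM arrays. Over the tested probe sets that stood for a gene with a single symbol, these medians lay between -0.02 and 0.014. Replicate A at 4 uM was apart from them, with 0.058. For 4 minus 20 uM the receptors' median difference was 0.01, with 66 of 125 (52.8%) above 0, against 0.016 and 54.4% of all tested probe sets. For 500 minus 4 uM it was 0.085, with 88 of 125 (70.4%) above 0, against 0.0005 and 50.1%. There 18 receptors were higher without overlap, against 7.88% of all probe sets, and 5 lower, against 6.69%. At an unadjusted p under 0.05, 12 were higher and 5 lower, against 5.75% and 6.17%. Without replicate A at 4 uM 27 were higher and 9 lower without overlap, against 14.4% and 9.26%. Leaving out replicate A at 4 uM gave medians of 0.012, 0.116 and 0.079 for 4 minus 20, 500 minus 20 and 500 minus 4 uM.

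**Figure D2:**
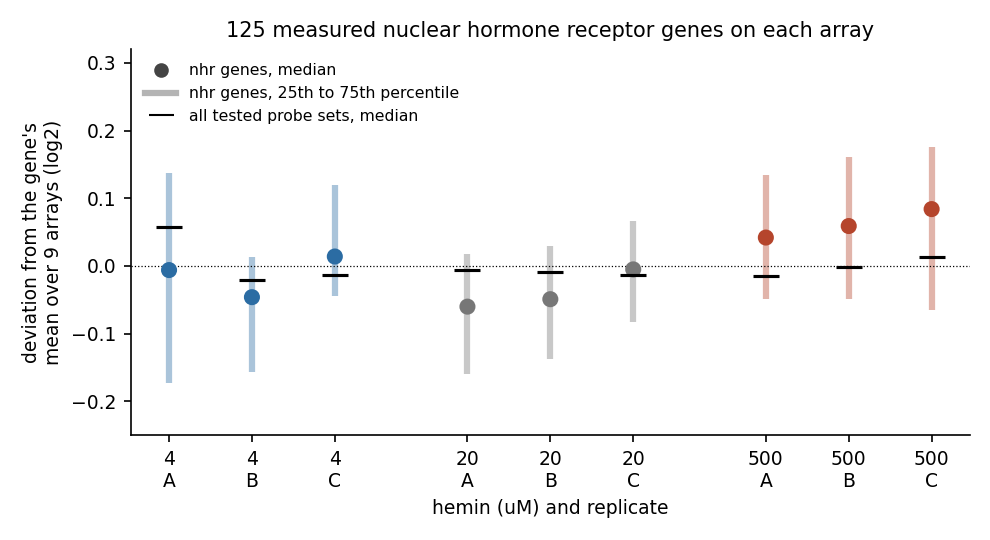
Median deviation of the 125 measured receptors from their own means over 9 arrays (circles, with bars over the 25th to 75th percentile), in log2, for each array ordered by hemin concentration and replicate. Dashes, labelled as all tested probe sets, are medians over the tested probe sets that stood for a gene with a single symbol. The 500 uM arrays lie between 0.042 and 0.084 and the 20 uM arrays between -0.060 and -0.005.

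**Figure D3:**
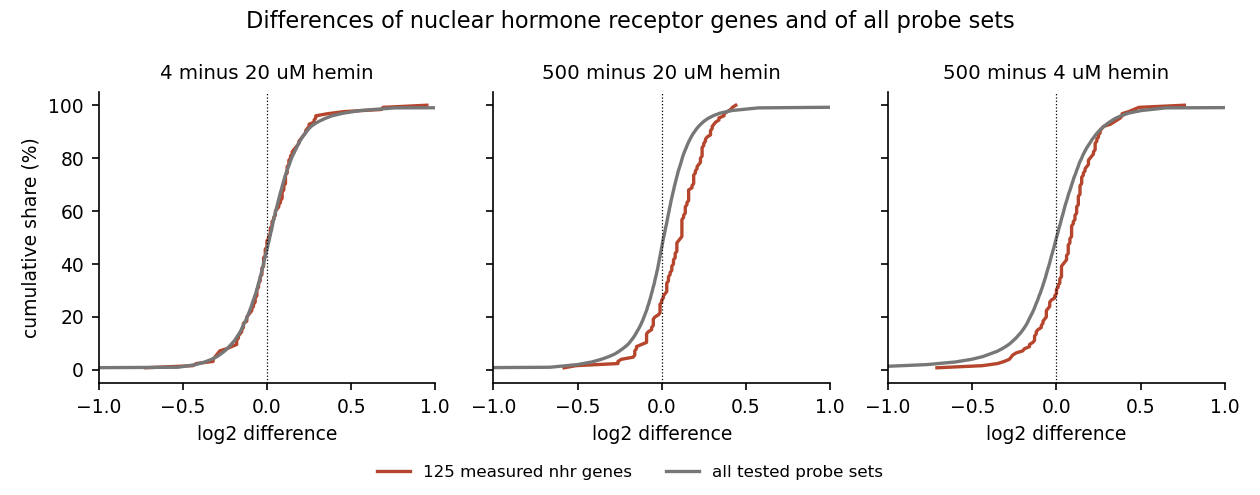
Cumulative share (vertical axis, percent) of the 125 measured receptors (red) and of the 16911 tested probe sets (grey) by log2 difference (horizontal axis), for 4 minus 20, 500 minus 20 and 500 minus 4 uM hemin. The curves lie together for 4 minus 20 uM, and for 500 minus 20 uM the receptors' curve crosses 50% at 0.116, against 0.011 for all probe sets.

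The receptors behind this pattern differed by little each. *nhr-226*, on chromosome V, read 4.79, 4.77 and 4.88 at 4 uM, 4.49, 4.56 and 4.52 at 20 uM and 4.91, 4.95 and 4.97 at 500 uM. The 3 groups did not overlap, with 20 uM lowest and 500 uM highest, and all values lay between 4.49 and 4.97, close to the level for a measured gene. The difference for 500 minus 20 uM was 0.42 with an SE of 0.08 (adjusted p = 0.0875). It passed in the fit without replicate A at 4 uM (adjusted p = 0.0269). *nhr-99* read 4.71, 5.38 and 4.85 at 4 uM, 5.22, 5.35 and 5.31 at 20 uM and 5.55, 5.92 and 5.74 at 500 uM. Its 500 uM values were above all others, by 0.44 against 20 uM (adjusted p = 0.62) and by 0.76 against 4 uM (SE 0.17, adjusted p = 0.0522). *nhr-22* read 5.82, 5.95 and 5.59 at 500 uM, against 5.46, 5.46 and 5.28 at 20 uM, a difference of 0.39 (adjusted p = 0.433). *nhr-4* read 7.19, 7.23 and 7.12 at 500 uM, against 6.84, 6.82 and 6.94 at 20 uM, a difference of 0.31 (adjusted p = 0.478). Neither gene's groups overlapped, and the same held for *nhr-35*, *nhr-115* and *nhr-212*, with differences of 0.34, 0.34 and 0.32.

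Only *nhr-137* and *nhr-155* were lower at 500 uM without overlap with 20 uM. *nhr-137*, on chromosome X, read 6.50, 6.17 and 6.16 at 4 uM, 6.35, 6.19 and 6.70 at 20 uM and 6.05, 5.78 and 5.67 at 500 uM. Its 500 uM arrays were below all 6 others, by 0.58 against 20 uM (SE 0.16, adjusted p = 0.321). For 500 minus 4 uM its difference was -0.44 (adjusted p = 0.297). In that comparison *nhr-69* (0.49), *nhr-243* (0.46), *nhr-98* (0.39), *nhr-129* (0.39), *nhr-91* (0.38), *nhr-4* (0.36) and *nhr-70* (0.27) were higher at 500 uM without overlap, with adjusted p-values of 0.135 to 0.456. On the lower side *nhr-210* had -0.27, *nhr-187* -0.24 and *nhr-10* -0.19, with adjusted p-values of 0.298 to 0.666. For *nhr-69* and *nhr-98* the lowest 4 uM value was again replicate A, at 4.01 and 4.88, against 5.04 or more in the other 4 uM arrays.

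The receptors of known function were read by role, and 0 of 24 passed the test in any comparison. In the fat and starvation group 6 of 7 listed receptors were described, since *nhr-62* shares its probe set's annotation field and was not taken by the name rule. *nhr-49*, which drives fatty acid desaturation, fat breakdown and the fasting response, read 9.24, 9.12 and 9.20 at 4 uM, 9.31, 9.24 and 9.20 at 20 uM and 9.44, 9.14 and 9.0 at 500 uM. In that probe set the groups overlapped throughout, and both differences from 20 uM were -0.06 with an SE of 0.11. A second probe set of *nhr-49* gave -0.06 at 4 uM and 0.15 at 500 uM, with overlap. For 500 minus 4 uM it gave 0.21 without overlap (limma, adjusted p = 0.468). *nhr-80*, which acts on fatty acid desaturases beside *nhr-49*, differed by 0.00 at 4 uM and 0.03 at 500 uM. *nhr-13* and *nhr-66*, partners of NHR-49 in parts of its programme, had 0.03 and 0.12 at 4 uM and 0.29 and 0.12 at 500 uM. A second probe set of *nhr-66* gave -0.11 at 4 uM and -0.06 at 500 uM, with overlap. *nhr-64* had 0.01 and 0.14. *nhr-69*, an HNF4 relative, had -0.21 at 4 uM with an SE of 0.24, its 4 uM values being 4.01, 5.04 and 5.06. The group's differences ran from -0.21 to 0.12 for 4 minus 20 uM and from -0.06 to 0.29 for 500 minus 20 uM.

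Genes known to act under these receptors were also examined. Of 10 listed targets of NHR-49, NHR-80 or NHR-13 with a probe set, 9 were tested. *hacd-1*, a fatty acid oxidation gene, read 10.87, 10.49 and 10.56 at 4 uM, 11.31, 11.64 and 11.39 at 20 uM and 11.56, 11.60 and 11.31 at 500 uM. It fell at 4 uM against 20 uM by 0.81 (adjusted p = 0.0188) and was 0.85 higher at 500 than at 4 uM (adjusted p = 0.00774). *fat-5*, a palmitoyl-CoA desaturase, read 8.29, 8.01 and 8.05 at 4 uM, 8.73, 8.51 and 8.62 at 20 uM and 9.01, 8.95 and 8.95 at 500 uM. Its 3 groups were ordered by hemin without overlap, and it rose at 500 against 4 uM by 0.86 (adjusted p = 0.00187), while the difference for 4 minus 20 uM was -0.50 (adjusted p = 0.0571, and 0.00977 without replicate A at 4 uM). *acs-2*, an acyl-CoA synthetase that NHR-49 induces on fasting, read 7.70, 5.85 and 6.39 at 500 uM, against 7.52, 7.72 and 9.31 at 20 uM. That was the widest spread among the targets, the groups overlapped, and the difference of -1.54 had an SE of 0.52 (adjusted p = 0.511). For 500 minus 4 uM *acs-2* was lower without overlap, with a difference of -1.62 (limma, adjusted p = 0.22). *icl-1* and *ech-1.1* were also lower there without overlap, with -0.85 and -0.1 (adjusted p = 0.242 and 0.621). In that comparison 5 of the 9 tested targets were above 0. The other 6 tested targets, *icl-1* and *ech-1.1* among them, passed in no comparison.

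The receptors of vitamin B12, propionate and amino acid metabolism were *nhr-10*, *nhr-68* and *nhr-114*. *nhr-10* and *nhr-68* switch on an alternative route of propionate breakdown when vitamin B12 is low. *nhr-114* protects the germ line on some diets. *nhr-68* read 5.58 in all 4 uM arrays, 5.62, 5.73 and 5.89 at 20 uM and 5.73, 5.86 and 5.84 at 500 uM. The 4 uM arrays were the lowest, but the difference was only -0.17 (SE 0.09, adjusted p = 0.684). *nhr-10* differed by 0.03 at 4 uM and -0.17 at 500 uM against 20 uM, and *nhr-114* by 0.09 and 0.19. A second probe set of *nhr-10* gave -0.07 at 4 uM and -0.35 at 500 uM, with overlap. Of 5 listed targets of NHR-10 and NHR-68, 4 were tested and 0 passed. *acdh-1*, the target most often used as a reporter of low vitamin B12, was too dim to be tested, with values between 2.63 and 3.20.

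Among receptors of sterols and foreign compounds, *nhr-8*, which acts in cholesterol balance and in resistance to toxins, had 0.19 at 4 uM and -0.12 at 500 uM against 20 uM. Its difference for 500 minus 4 uM was -0.31 (SE 0.12, adjusted p = 0.344). *nhr-48*, of the same subfamily, had 0.11 and 0.19, *nhr-86*, which takes part in the response to foreign compounds, had -0.04 and 0.15, and *nhr-102* had 0.12 and 0.14. *nhr-176*, with a mean of 3.90, lay below the level for a measured gene. *daf-12*, the receptor of the bile acid-like dafachronic acids and not an *nhr* symbol, had 0.02 and 0.16. Of 8 listed genes of hormone synthesis and 8 tested coregulators, the Mediator subunit *mdt-15* and the lipid regulator *sbp-1* among them, 0 passed in any comparison.

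The receptor linked to iron was *nhr-14*, an HNF4 relative whose loss raises iron uptake and pathogen resistance. It read 7.25, 7.12 and 7.26 at 4 uM, 6.74, 7.22 and 7.09 at 20 uM and 7.37, 7.56 and 7.23 at 500 uM. Every 500 uM value was above every 20 uM value, though the nearest were only 0.01 apart, and the difference of 0.37 did not pass (SE 0.14, adjusted p = 0.619). *nhr-45*, which takes part in the response to mitochondrial damage, had -0.01 at 4 uM and 0.15 at 500 uM. The zinc receptor gene *hizr-1* (once *nhr-33*) had a mean of 3.68 and was not tested.

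In the moulting and development group 9 of 11 listed receptors were measured. *nhr-85*, the relative of the heme-binding receptors of insects and mammals and a timing gene of the larval stages, read 4.88, 4.61 and 4.57 at 4 uM, 4.73, 4.80 and 4.73 at 20 uM and 4.61, 4.79 and 4.94 at 500 uM. The groups overlapped and lay near the level for a measured gene, with differences of -0.06 and 0.03 against 20 uM (SE 0.11 each). *nhr-23*, the ROR relative that drives each moult, read 7.82, 7.33 and 7.25 at 4 uM, 7.81, 7.35 and 7.59 at 20 uM and 7.62, 7.24 and 7.41 at 500 uM, differences of -0.12 and -0.16. *nhr-25*, an FTZ-F1 relative needed for moulting and the epidermis, had 6.90, 7.44 and 8.03 at 4 uM, a spread of more than a log2 unit, and differences of -0.08 and 0.24 (SE 0.23). The nearest other values of this group were small: *nhr-41* had -0.02 and 0.05, *nhr-40*, which acts in muscle development, -0.07 and 0.12, and *nhr-1* -0.01 and -0.08. A second probe set of *nhr-1* gave 0.1 at 4 uM and 0.27 at 500 uM, with overlap. *nhr-31*, needed for the tubule of the excretory cell, had 0.02 at 4 uM and 0.30 at 500 uM (adjusted p = 0.693). *nhr-67* lay below the level with a mean of 4.22, and *nhr-2* at 3.16 was too dim to be tested. Of 5 moulting cycle partners, *lin-42* among them, 0 passed in any comparison.

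**Figure D4:**
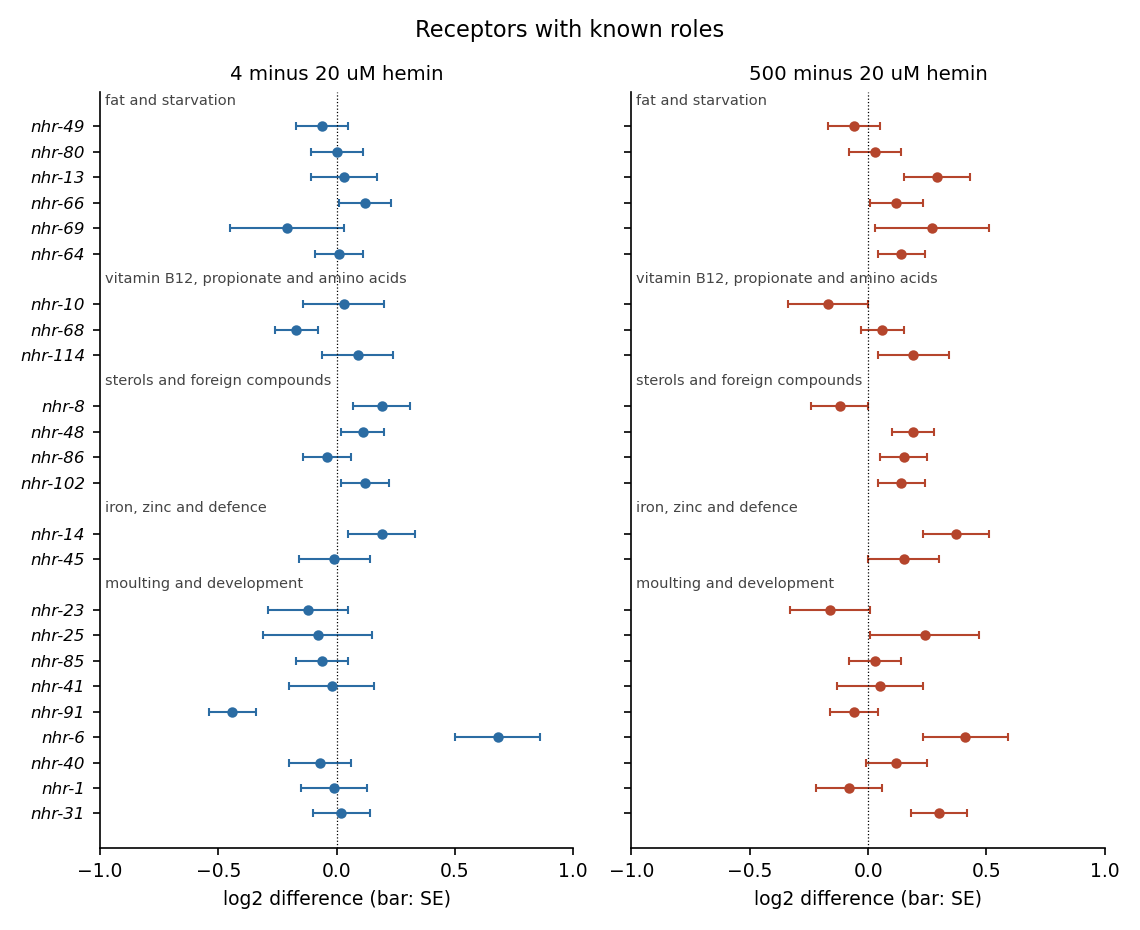
Log2 differences (points, with bars of 1 SE) for 4 minus 20 uM (left panel) and 500 minus 20 uM hemin (right panel) of the 24 measured receptors with known roles, grouped by role. *nhr-6* (0.68) and *nhr-91* (-0.44) lie farthest from 0 for 4 minus 20 uM, and no receptor shown passed the test.

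Many *nhr* genes lie side by side on chromosome V, and *nhr-202* is in the longest such stretch. With at most 2 other genes allowed between neighbours in the gene order of the WBcel235 annotation, 172 *nhr* genes fell into 47 stretches. The stretch around *nhr-202* held 12 genes, all with probe sets bright enough to test, 8 of them measured. It was examined because of *nhr-202*, after its values had been seen. The neighbours on each side of *nhr-202* lay below the level for a measured gene. *nhr-203* read 4.45, 4.38 and 4.42 at 4 uM, 4.30, 3.88 and 3.87 at 20 uM and 4.49, 4.38 and 4.38 at 500 uM, a difference of 0.40 both for 4 minus 20 and for 500 minus 20 uM (adjusted p = 0.255 and 0.403). *nhr-201* read 4.69, 4.37 and 4.26 at 4 uM, 3.91, 4.07 and 4.03 at 20 uM and 4.61, 4.19 and 4.32 at 500 uM, differences of 0.44 and 0.37 (adjusted p = 0.303 and 0.619). In both genes the 20 uM arrays were the lowest and no 4 or 500 uM value overlapped them.

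At one end of the stretch *nhr-123*, also below the level, had the same order by smaller steps. It read 4.5, 4.47 and 4.5 at 4 uM, 4.36, 4.39 and 4.30 at 20 uM and 4.40, 4.64 and 4.5 at 500 uM, differences of 0.14 and 0.16 (adjusted p = 0.71 and 0.805). Other genes of the stretch read otherwise. *nhr-98* read 4.88, 5.48 and 5.55 at 4 uM, below its 20 uM values of 5.60, 5.66 and 5.60, and *nhr-211* had differences of -0.04 and -0.01. Over the 12 genes the median difference was 0.14 for 4 minus 20 uM, with 8 above 0, and 0.24 for 500 minus 20 uM, with 11 above 0. Over the 69 measured *nhr* genes on chromosome V, 53 were above 0 for 500 minus 20 uM, and on chromosome X 11 of 16. The counts were 15 of 20 on chromosome IV, 7 of 9 on II, 4 of 5 on III and 3 of 6 on I. Whether the probes of neighbouring genes also bind each other's transcripts was not tested.

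**Figure D5:**
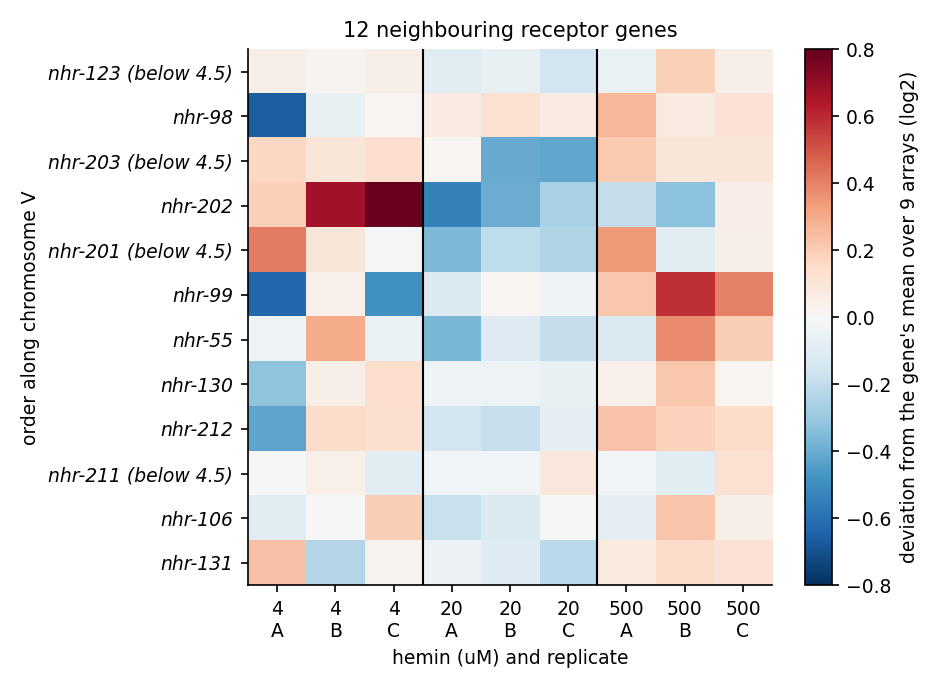
Deviation of each of the 12 neighbouring *nhr* genes on chromosome V from its own mean over the 9 arrays (colour, log2), with genes in chromosome order on the vertical axis and arrays by hemin concentration and replicate on the horizontal axis. *nhr-202* is highest in the 4 uM arrays, and *nhr-203* and *nhr-201* are lowest in the 20 uM arrays.

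Of the 125 measured genes 29 had more than 1 probe set, which gave 30 further tested probe sets for 27 of them. None of these passed the test in any comparison. For 500 minus 20 uM 20 of the 30 were above 0, with a median of 0.07, for 4 minus 20 uM 13 were, with a median of -0.02, and for 500 minus 4 uM 19 were, with a median of 0.05. The sign matched that of the gene's first probe set in 14 of 30 for 4 minus 20 uM, in 16 for 500 minus 20 uM and in 15 for 500 minus 4 uM. Signs, and the counts above 0, were taken after rounding to 2 decimals. A rounded 0 counted as no match, so agreement may be counted too low for 4 minus 20 and 500 minus 4 uM. For 500 minus 20 uM no difference rounded to 0. Only 2, 2 and 4 of them differed from the first probe set by more than 0.3. *nhr-202* had a single probe set.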

How the data were processed

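RNA of 9 samples of whole worms, 3 at each hemin concentration, was measured on Affymetrix arrays. The table the authors deposited holds 1 log2 value per probe set and array, between 2.02 and 14.37. MAS5 and RMA are listed as tools, per the submitters' processing notes, with no word on which gave these values, and they were used as deposited. Raw signal over background was not used here, and the number of arrays limits the precision.

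The 22548 gene probe sets lost the dimmest 25% by mean over all arrays, which left 16911. One mean per concentration was fitted over the 9 arrays with limma 3.58.1 in R 4.3.3 (eBayes with a mean trend), and p-values were adjusted by Benjamini-Hochberg over all 16911, with a threshold of 0.05. The fit was tested on simulated data. Named were called receptors, up to 8 of the largest differences in each direction without overlap of the groups, and receptors listed by role. Members, lists and tests were chosen with earlier results of these data known. Gene names came from the platform annotation; all 253 symbols matched the RefSeq table of WBcel235, used for chromosomes and gene order. Samples were grouped by their labels. Alternatives covered normalization, centring, the dim filter, the level for a measured gene, the variance prior, array weights, other probe sets, the replicate letter as a block and leaving out each array.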

Additional observations from a re-analysis of the deposited data

How the results depend on the processing

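The count of receptors called for 4 minus 20 uM was 1 as reported, and 0 with quantile normalization, with each array centred on its median, with the dimmest 50% left out, in a fit of only the 6 arrays compared, and with the measured level at 5.5. It was 11 with array weights and 0 to 2 when each array was left out in turn. For array weights, no share of all tested probe sets was computed, here or in the counts below. *nhr-202* had an adjusted p of 0.0653 with quantile normalization, 0.0598 with centring and 0.0993 in the fit of 6 arrays (limma), with differences of 0.90 to 0.95. For 500 minus 20 uM the count was 1 with array weights and 1 in the fit of 6 arrays, and 0 to 1 with an array left out. For 500 minus 4 uM it was 6 with array weights and 0 to 1 with an array left out, being 1 without any single 4 uM array. The joint test called 0 with quantile normalization, centring or the dimmest 50% left out, 10 with array weights, 2 when the probe sets of a gene were averaged, and 0 to 3 with an array left out (3 without replicate A at 4 uM, 1 without replicate B at 4 uM and 0 without any other). With the replicate letter as a block, 1 receptor was called for 4 minus 20 uM and 2 for 500 minus 4 uM (*nhr-202* and *nhr-99*). Same-lettered arrays had correlations of their deviations between -0.152 and 0.289, so the letters were not taken to pair the samples. The median difference for 4 minus 20 uM was -0.033 with centring, -0.016 with array weights and 0.002 to 0.04 with an array left out. For 500 minus 20 uM it was 0.081 to 0.12 with an array left out, and for 500 minus 4 uM 0.119 with centring and 0.055 (without replicate B at 4 uM) to 0.104 with an array left out. The causes of these shifts were not tested. With 3 arrays a group and a median SE of 0.123, differences of the size most receptors showed were not detectable one by one, and 128 of the 253 genes lay below the level for a measured gene, 48 of them bright enough to be tested.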
